A study of Mus musculus with 6 samples.

Results

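The genes described here are the 10 that carry a cell from G1 into S phase: the D-type cyclins *Ccnd1*, *Ccnd2* and *Ccnd3*, the E-type cyclins *Ccne1* and *Ccne2*, the kinases *Cdk2*, *Cdk4* and *Cdk6*, the CDK inhibitor *Cdkn1b* (p27) and the transcription factor *Myc*. They were chosen by symbol from the 27202 genes listed, with earlier results of these data known. All 10 were found and passed the filter on low values (a mean of at least 10 normalized counts). The libraries were made from colonic tissue, 3 from *Nedd4l* fl/fl VillinCre mice (cKO) and 3 from *Nedd4l* fl/fl littermates (WT). Every mouse was 8 to 10 weeks old, carried floxed *Nedd4l* alleles, received 2% DSS, a sulfated sugar polymer toxic to the epithelium of the colon, and was sampled on day 7. Cre under the Villin promoter acts in intestinal epithelial cells, so the fibroblasts, immune cells and other cells of the tissue keep *Nedd4l*, and no untreated mice are among these samples. Each library was taken as 1 mouse, which the sample titles do not state. The p-values set a difference of means against the spread between libraries, which limma shares in part over all genes.

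As background, D-type cyclins are the G1 cyclins that respond to growth factors and Wnt signals. With Cdk4 or Cdk6 they phosphorylate the retinoblastoma protein and its relatives, which frees E2F transcription factors. E2F drives the E-type cyclins and the enzymes of DNA replication, and cyclin E with Cdk2 completes the step. p27 binds and inhibits cyclin E-Cdk2, and Myc, a Wnt target of dividing crypt cells, promotes growth and entry into the cycle. In the colon such cells lie in the lower crypt, and after DSS injury they regrow the epithelium. In bulk tissue, fewer cells of a type and less RNA per cell cannot be told apart.

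The data showed lower RNA levels of the E-type cyclins and of the kinases *Cdk2* and *Cdk4* in cKO mice, while *Myc* and *Cdkn1b* had nearly equal means. *Ccne2* stood at 62.2% of the WT mean, *Ccne1* at 69.1%, *Cdk2* at 83.1% and *Cdk4* at 86.9% (n = 3 per genotype). These 4 of 10 genes were lower at an unadjusted p under 0.05 in limma, against 7.08% of all 16246 genes tested, and 0 of 10 were higher, against 6.91%. After Benjamini-Hochberg adjustment over all genes, limma called 0 of 10 members and 0 of 16246 genes in either direction. On whole reads recovered from the table, edgeR's quasi-likelihood test placed 4 members lower at an unadjusted p under 0.05 (6.84% of all genes) and 0 higher (7.48%), and it called 0 genes after adjustment. DESeq2 placed 3 members lower (5.94% of all genes) and 0 higher (7.68%) at that p. After adjustment DESeq2 called 1 member lower, *Ccne2* (1.09% of all genes), and 0 higher (1.62%). By sign alone, 9 of 10 members had a lower estimate in cKO mice, against 49.8% of all genes, and 1 a higher one, against 50.2%. The median log2 fold change was −0.18 over the members and 0.0013 over all genes tested. The count of 4 depended on single libraries: it was 1 without cKO replicate 3 and 2 without WT replicate 1, 2 or 3, when 740 to 855 of the 16246 genes were lower at that p.

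The deleted gene separated the genotypes. *Nedd4l* was read at 476, 942 and 566 normalized counts in cKO replicates 1 to 3, and at 1241, 1271 and 1266 in WT replicates. All cKO libraries lay below all WT libraries, with cKO replicate 2 nearest to them, and the log2 fold change was −0.99 (SE 0.24, adjusted p = 0.225 in limma, 0.0131 without cKO replicate 2, and from 0.00750 to 0.512 over the 15 alternatives). Over all tested genes, cKO replicate 2 correlated more with the WT libraries (mean r 0.977) than with its own genotype (0.966). Library totals ran from 14914367 to 17547270 reads. The summed level of 8 epithelial markers was 189243 to 214134 normalized counts in cKO and 204028 to 228242 in WT libraries. Of these markers 6 had lower estimates in cKO mice, *Krt19* (−0.22) and *Krt8* (−0.19) lowest, against 49.8% of all genes. Higher estimates were found for 2, *Epcam* (0.11) and *Krt20* (0.10), and 0 of the 8 had an unadjusted p under 0.05 in limma. Fibroblast markers summed to 20696 to 42199 against 10418 to 17708, and myeloid markers to 9269 to 14098 against 5615 to 7599, so neither sum overlapped between genotypes. Of all single genes tested, 10.5% had every cKO library above every WT library. Of the fibroblast list 5 of 5 genes and of the myeloid list 8 of 8 had higher estimates in cKO mice, against 50.2% of all genes. At an unadjusted p under 0.05 in limma 3 of each were higher, against 6.91%. None of these markers was at 0. Not every myeloid gene separated the genotypes: *Csf1r* (0.10), *Adgre1* (0.16) and *Cd14* (0.14) overlapped. *S100a8* and *S100a9* were read at 2708 and 2680 in cKO replicate 1. In cKO replicate 2 they were read at 31.0 and 27.6, and in cKO replicate 3 at 417 and 348. The fibroblast and myeloid sums thus moved with genotype, while the epithelial sum overlapped. The part of these markers in each difference given here was not tested.

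**Figure D1:**
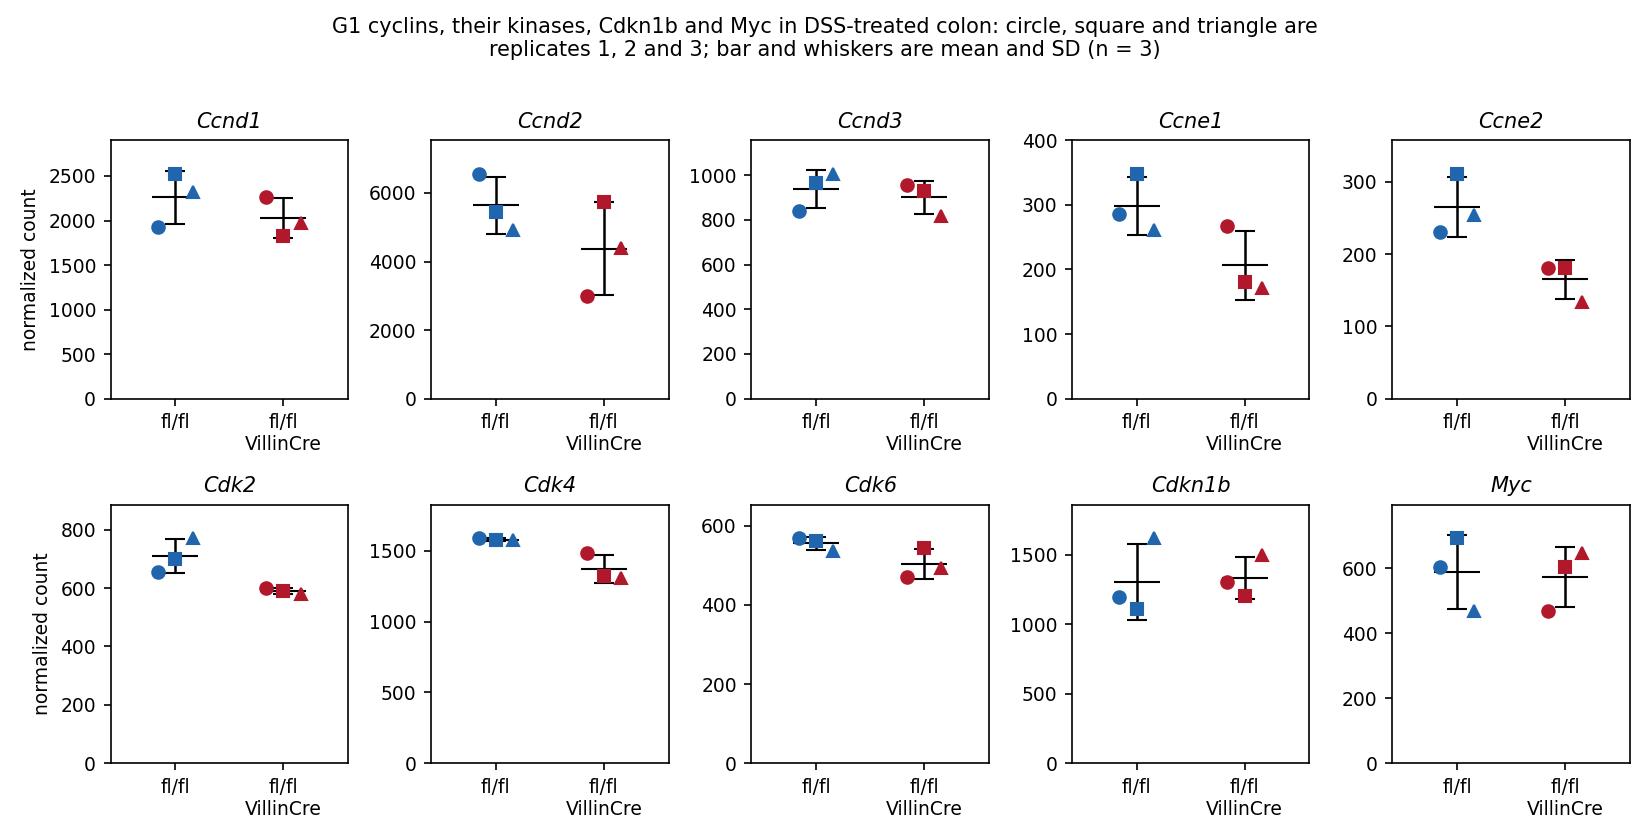
Normalized counts of the 10 G1 genes in each of the 6 libraries (vertical axis, linear, from 0), with each mouse as a point (replicates 1, 2 and 3 as circle, square and triangle) and the mean and SD of each genotype as bar and whiskers. The points of *Ccne2*, *Cdk2* and *Cdk4* do not overlap between genotypes, while those of the other 7 genes do.

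The E-type cyclins, the activators of Cdk2, had the lowest cKO to WT ratios of the 10 over all 6 libraries. *Ccnd2* had a lower estimate than *Ccne1* without cKO replicate 2 (−0.62 against −0.47) and without cKO replicate 3 (−0.44 against −0.43). *Ccne2* (chromosome 4, 11191351 to 11204779, plus strand, GRCm38) was read at 181, 180.2 and 134 normalized counts in cKO replicates 1 to 3. In WT replicates it was read at 231, 311 and 254. Every cKO library was below every WT library. The mean was 165 ± 26.9 in cKO and 265 ± 41.4 in WT mice (SD, n = 3). The log2 fold change was −0.68 (SE 0.18, 95% interval −1.10 to −0.26). The unadjusted p was 0.00570, rank 396 among all genes, and the adjusted p was 0.234 in limma and 0.242 in edgeR. DESeq2 gave *Ccne2* an adjusted p of 0.0466, and over the 15 alternatives the adjusted p ran from 0.0270 to 0.512. The unadjusted p stayed under 0.05 in all 16 fits, the first included.

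*Ccne1* (chromosome 7, 38097984 to 38107534, minus strand) was read at 267, 180.2 and 171 in cKO replicates 1 to 3 and at 286, 348 and 261 in WT replicates. The genotypes overlapped by 1 library, since cKO replicate 1 was just above WT replicate 3. The means were 206 ± 53.1 and 298 ± 45.0, a log2 fold change of −0.55 (SE 0.20, 95% interval −1.02 to −0.08). The unadjusted p from limma was 0.0270 and the adjusted p 0.314. Without cKO replicate 1 the log2 fold change was −0.75, and without cKO replicate 3 it was −0.43. The unadjusted p from limma exceeded 0.05 without WT replicate 1 (0.0544), WT replicate 2 (0.0990), cKO replicate 2 (0.0737) or cKO replicate 3 (0.0968). Levels per kb were counts divided by all annotated exon bases of a gene. Expressed transcripts can be shorter, so these levels compare genes only roughly. On this scale the sum of both E-type cyclins was 152, 119 and 103 in cKO and 174, 219.9 and 170.5 in WT libraries. It did not overlap, while 10.9% of all single genes tested had every cKO library below every WT library. *Ccne1* supplied 61.8% ± 4.66 of that sum in cKO and 59.6% ± 2.26 in WT mice, and the shares of the libraries overlapped between genotypes.

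*Cdk2*, the partner of cyclin E, lies on chromosome 10 (128697939 to 128705031, minus strand). It was read at 600.1, 589 and 579 in cKO libraries and at 657, 699.9 and 771 in WT libraries. The cKO values were within a narrow band, and all were below the lowest WT value. The means were 589 ± 10.7 and 709 ± 57.6, with a log2 fold change of −0.26 (SE 0.09, 95% interval −0.48 to −0.05). The unadjusted p from limma was 0.0217 and the adjusted p 0.310. Leaving out WT replicate 3, the highest, gave −0.20 with an unadjusted p of 0.0847 in limma, and leaving out cKO replicate 3 gave −0.25 with 0.0650.

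*Cdk4*, a partner of the D-type cyclins, lies on the same chromosome (127063534 to 127067920, plus strand). Its WT values were nearly equal, at 1589, 1573 and 1578, and its cKO values were 1488, 1324 and 1307. No cKO library reached the WT values, although cKO replicate 1 was close. The means were 1373 ± 99.7 and 1580.0 ± 8.02, with a log2 fold change of −0.20 (SE 0.08, 95% interval −0.39 to −0.02). The unadjusted p from limma was 0.0344 and the adjusted p 0.331. The unadjusted p exceeded 0.05 in limma without WT replicate 1, 2 or 3 and without cKO replicate 2 or 3. It also did so in limma with the replicate number as a block (0.0514), and in DESeq2 (0.0679). *Ccne2*, *Cdk2* and *Cdk4* were thus the 3 of 10 members whose cKO libraries all lay below the WT libraries, against 10.9% of all genes tested, and 0 of 10 lay above, against 10.5%. An exact two-sided permutation test of each of these 3 genes alone gave p = 0.10, the smallest that 3 against 3 mice allow.

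*Cdk6*, the other kinase of D-type cyclins, lies on chromosome 5 (3341485 to 3531008, plus strand). It was read at 471, 545 and 494 in cKO and at 569, 561 and 537 in WT libraries. Only cKO replicate 2 reached into the WT range. The log2 fold change was −0.15 (SE 0.10, adjusted p = 0.510 in limma). Per kb, *Cdk4* made up 92.1% ± 0.954 of the sum of both kinases in cKO mice and 92.4% ± 0.194 in WT mice. That sum was 492, 447 and 438 per kb in cKO and 530 (WT replicate 1), 524 and 524 in WT libraries. It followed *Cdk4* and did not overlap, as was the case in this direction for 10.9% of all single genes.

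The start regions of *Cdk4* and *Cdk2* are shown because these kinases separated the genotypes and because their letters include the motifs of Myc and E2F, whose own RNAs are described here. RefSeq (GRCm38.p6) start sites were at hand for 6 of the 10 members. The 250 bases before each start were searched on both strands for the E-box CACGTG, which Myc with Max can bind, and for the E2F letters TTTCCCGC, TTTGGCGC, TTTGCCGC and TTTCGCGC. *Cdk4* held 4 E-boxes, in capitals in its region (chr10:127063285-127063534, plus strand, 5′ to 3′). *Cdk2* held 1 set of E2F letters on the opposite strand, read here as GCGGGAAA and in capitals within 30 bases (chr10:128705173-128705202, minus strand). An exon of *Pmel* overlaps the 250 bases before the *Cdk2* start. Annotated exons of *Cdk4*, *Cdk6*, *Ccne1* and *Ccnd3* reach into a window of their own gene, since annotated and RefSeq starts can differ.
Cdk4: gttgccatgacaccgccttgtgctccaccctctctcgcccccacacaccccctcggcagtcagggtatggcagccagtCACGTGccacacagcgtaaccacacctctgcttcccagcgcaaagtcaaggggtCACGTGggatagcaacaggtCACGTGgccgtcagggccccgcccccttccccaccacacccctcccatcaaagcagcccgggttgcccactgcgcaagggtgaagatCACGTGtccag
Cdk2: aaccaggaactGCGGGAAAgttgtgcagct

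An E-box was present in 6.02% of the 32851 start windows of this length, and one of the E2F letter sets in 1.86%. Windows with 4 or more E-boxes, a cutoff equal to the count in *Cdk4* itself, made up 0.0213%, *Cdk4* included. *Cdk6* held 1 E-box, 220 to 215 bases before its RefSeq start. That window (chr5:3343643-3343892) lies inside the gene coordinates given above, not upstream of them. The windows of *Ccne1*, *Cdkn1b* and *Ccnd3* held neither set of letters. A match describes letters only.

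**Figure D2:**
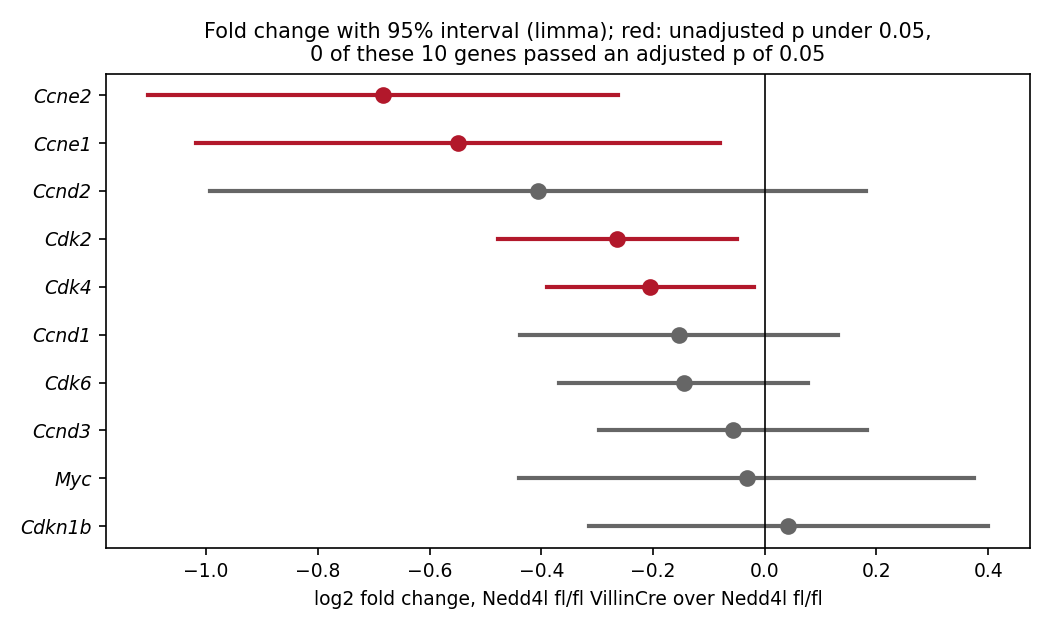
Log2 fold change of cKO over WT mice for the 10 G1 genes (horizontal axis), with limma's estimate as a point and its 95% interval as a line, red where the unadjusted p was under 0.05. The intervals of *Ccne2*, *Ccne1*, *Cdk2* and *Cdk4* lie below 0 and those of the other 6 G1 genes span it.

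The D-type cyclins had intervals that span 0. *Ccnd2* (chromosome 6, 127125162 to 127152193, minus strand), the member with the highest level per kb in both genotypes, was read at 2997, 5723 and 4406 in cKO and at 6559, 5431 and 4933 in WT libraries. cKO replicate 1 was the lowest of all, and cKO replicate 2 lay within the WT range. The means were 4376 ± 1363 and 5641 ± 833, and the log2 fold change was −0.41 (95% interval −0.99 to 0.18, SE 0.24, adjusted p = 0.479 in limma). It was −0.16 without cKO replicate 1, and −0.62 with an unadjusted p of 0.0174 without cKO replicate 2. Within each genotype the order of the libraries by *Ccnd2* was also their order by the summed level of 7 colonic markers. Of these, *Slc26a3* and *Aqp8* followed that order in both genotypes, while *Car1*, *Cdx1*, *Cdx2*, *Hoxb13* and *Muc2* departed from it in at least 1. That sum was 55174, 97598 and 73201 in cKO replicates 1 to 3 and 93325, 87865 and 81193 in WT replicates, and its part in the *Ccnd2* values was not tested.

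*Ccnd1* (chromosome 7, 144929931 to 144939925, minus strand), a classical target of Wnt and growth factor signals, was read at 2268, 1832 and 1976 in cKO and at 1931, 2525 and 2321 in WT libraries. The ranges overlapped widely. The log2 fold change was −0.15 (95% interval −0.44 to 0.13, SE 0.12, adjusted p = 0.581 in limma). *Ccnd3* (chromosome 17, 47505051 to 47599691, plus strand) was read at 958, 928 and 818 in cKO and at 841, 965 and 1007 in WT libraries, and its log2 fold change was −0.06 (adjusted p = 0.824 in limma). cKO replicate 1, lowest for *Ccnd2*, was the highest of its genotype for both *Ccnd1* and *Ccnd3*.

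Added per kb, the 3 D-type cyclins gave 909, 1103 and 981 in cKO and 1203, 1224 and 1132 in WT libraries. The sums did not overlap, although each gene's own values did. The means of the sums were 998 ± 97.9 and 1186 ± 48.2. Of all single genes tested, 10.9% had every cKO library below every WT library. *Ccnd2* supplied 46.0% ± 10.2 of the sum in cKO and 50.5% ± 6.48 in WT mice, and in cKO replicate 1 it supplied 35.0% against 53.0% from *Ccnd1*. That library also had the lowest colonic and the highest fibroblast marker sum of the 6, and their part in this share was not tested.

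*Cdkn1b* (chromosome 6, 134920401 to 134925513, plus strand), the inhibitor, was the one member with a higher estimate. It was read at 1303, 1202 and 1498 in cKO and at 1195, 1108 and 1621 in WT libraries. The third replicate was the highest of each genotype, and the ranges were nested. The log2 fold change was 0.04 (95% interval −0.31 to 0.40, adjusted p = 0.915 in limma), with a negative sign without WT replicate 1 (−0.01), WT replicate 2 (−0.07) or cKO replicate 3 (−0.04).

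*Myc* (chromosome 15, 61985391 to 61990374, plus strand) was read at 469, 605 and 648 in cKO and at 605, 693 and 468 in WT libraries. The lowest library of each genotype and the highest of each were close in value, so no separation was visible. The log2 fold change was −0.03 (95% interval −0.44 to 0.38, adjusted p = 0.944 in limma), and its sign was positive without cKO replicate 1 (0.11) or WT replicate 2 (0.09), and with array weights (0.16). The interval leaves room for a difference of either sign.

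Over the 15 alternatives the estimate ran from −0.87 to −0.54 for *Ccne2*, from −0.75 to −0.43 for *Ccne1*, from −0.32 to −0.20 for *Cdk2* and from −0.26 to −0.17 for *Cdk4*, so these 4 genes kept their direction in every one of them. It ran from −0.62 to −0.16 for *Ccnd2*, from −0.26 to −0.07 for *Ccnd1* and from −0.20 to −0.10 for *Cdk6*.

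**Figure D3:**
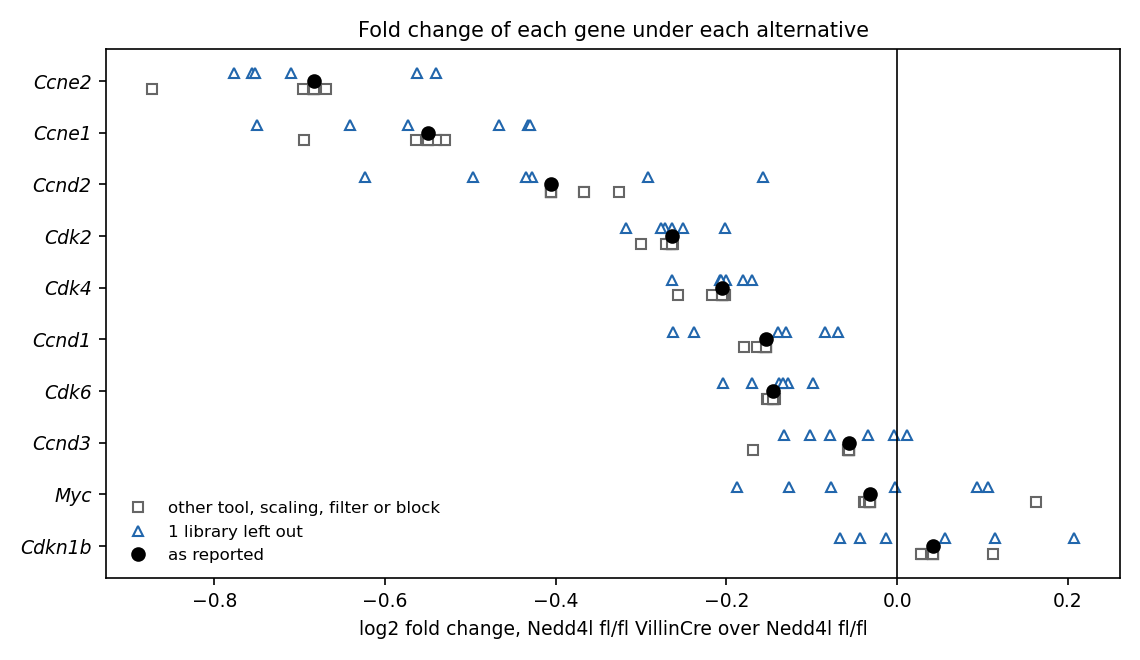
Log2 fold change of cKO over WT mice (horizontal axis) for the 10 G1 genes in the fit reported here and in its 15 alternatives, with a filled circle for the fit reported here, triangles for fits that leave out 1 library and squares for the other alternatives. The points of *Ccne2* lie between −0.87 and −0.54, those of *Myc* and *Cdkn1b* on both sides of 0.

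Per kb, the order of the members in WT mice ran from *Ccnd2* (600 ± 88.6) through *Cdk4* (486 ± 2.47), *Ccnd1* (480 ± 64.1), *Cdkn1b* (287 ± 60.2), *Myc* (217 ± 41.6), *Cdk2* (114 ± 9.27), *Ccne1* (112 ± 16.9), *Ccnd3* (107 ± 9.79) and *Ccne2* (75.9 ± 11.8) to *Cdk6* (39.7 ± 1.18). Neighbours whose libraries overlapped were *Cdk4* with *Ccnd1*, *Cdkn1b* with *Myc*, *Cdk2* with *Ccne1*, and *Ccne1* with *Ccnd3*. In cKO mice *Ccnd2* (465 ± 145), *Ccnd1* (430 ± 47.2) and *Cdk4* (423 ± 30.7) overlapped as neighbours at the top. At the bottom the range of *Ccne2* (47.3 ± 7.70) overlapped with that of *Cdk6* (36.0 ± 2.72), from which it was separate in WT mice. Within each of the 3 cKO libraries *Ccne2* was still above *Cdk6*.

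**Figure D4:**
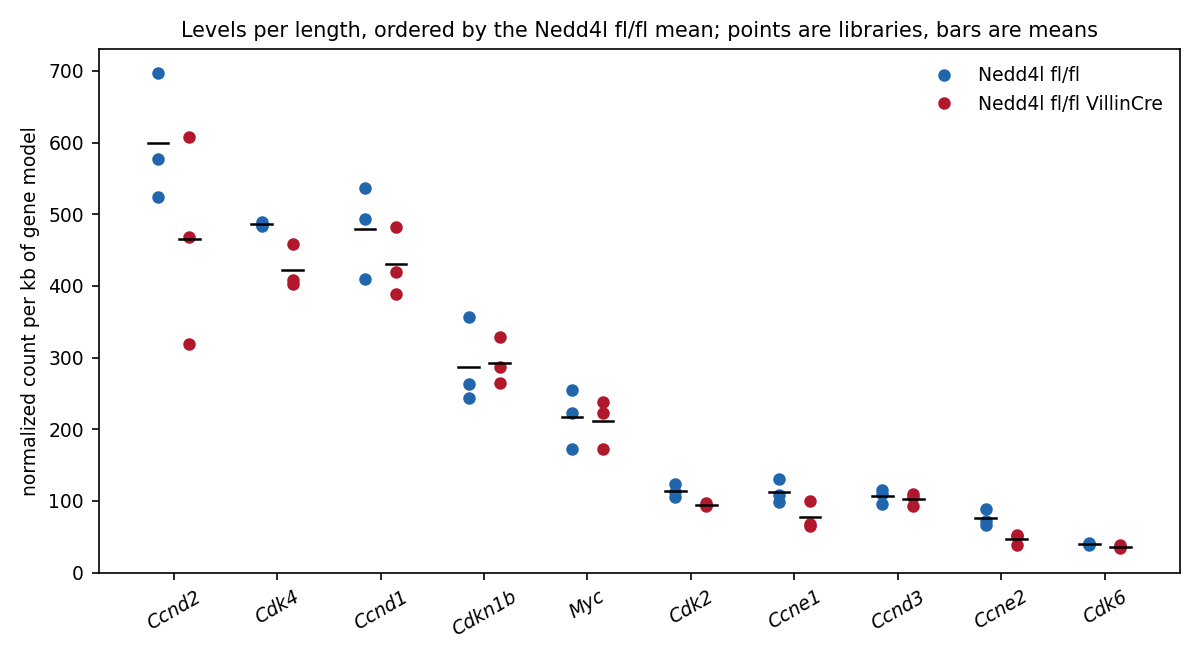
Normalized counts per kb of annotated exon bases (vertical axis, linear, from 0) for the 10 G1 genes in the order of their WT means, with each library as a point and each genotype's mean as a bar. *Ccnd2*, *Cdk4* and *Ccnd1* lie at the top and *Ccne2* and *Cdk6* at the bottom in both genotypes.

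Ratios within a library do not depend on its scaling, and 5 were compared between genes of 1 family or complex. The log2 ratio of *Cdkn1b* to *Cdk2* per kb was 1.57, 1.48 and 1.82 in cKO and 1.31, 1.11 and 1.52 in WT libraries, a difference of 0.31 with 1 overlapping pair (exact permutation p = 0.2, adjusted over 5 ratios 0.7). The differences were −0.25 for *Ccnd2* to *Ccnd1*, 0.10 for *Ccnd3* to *Ccnd1*, 0.06 for *Cdk6* to *Cdk4* and −0.13 for *Ccne2* to *Ccne1*. All of the 5 overlapped between genotypes, and the adjusted exact permutation p was 0.7 for each. With 3 against 3 mice p cannot go below 0.10, so these ratios could not have passed the threshold.

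Reads from opposite strands were not stated to be separated by the counting, and exons of 7 of the 10 members share bases with another gene. *Ccne2* shares 17.4% of its exon bases with *Ints8* (661 ± 104 in cKO and 617 ± 89.6 in WT mice, log2 fold change 0.10). *Cdk4* shares 19.7% with *Tspan31* (812 ± 51.2 and 716 ± 42.3, 0.18) and *Ccnd1* 23.4% with *Oraov1* (389 ± 8.84 and 392 ± 39.2, −0.01). *Ccnd3* shares 4.11% with *Bysl*, which had a lower mean in cKO mice (427 ± 36.2 and 502 ± 96.4, −0.22), and *Cdk2* shares 0.547% with *Pmel* (0.09). The part of shared reads in the members' values was not tested. *Ccne1*, *Cdkn1b* and *Myc* share no exon bases.

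The other genes of the pathway were read from 8 hand-written lists, in each of which limma called 0 genes after adjustment. These lists were chosen with earlier results of these data known, so their counts describe the data and are not independent tests. Upstream of the kinases, CDK inhibitors had 4 of 5 tested genes with lower and 1 with higher estimates, against 49.8% and 50.2% of all genes. An unadjusted p under 0.05 was reached by 0 of them in limma (median log2 fold change −0.19). The estimates of the smallest p were −0.31 for *Cdkn2c* (p18) and −0.24 for *Cdkn2b* (p15), both inhibitors of Cdk4 and Cdk6, and −0.13 for *Cdkn1a* (p21). *Cdkn2a* did not pass the filter. Of 4 genes for CDK activation 1 was lower at an unadjusted p under 0.05, against 7.08% of all genes, and this count was 0 without WT replicate 2, WT replicate 3 or cKO replicate 2. It was *Ccnh*, the cyclin of the CDK-activating kinase, with 296 ± 22.3 in cKO and 368 ± 27.9 in WT mice (−0.32, adjusted p = 0.319 in limma). Its partners *Cdk7* and *Mnat1* had log2 fold changes of 0.16 and −0.12. Of 14 ubiquitin ligase parts and deubiquitinases that act on cyclins, p27 or Myc, 1 was lower at an unadjusted p under 0.05, *Stub1* (−0.28), a share near the 7.08% of all genes. That count was 0 without WT replicate 1, WT replicate 2 or cKO replicate 3. *Skp2*, which recruits p27 for degradation, had −0.33 with overlapping libraries. *Ambra1*, which does so for D-type cyclins, had 0.09 (unadjusted p = 0.295 in limma). All its cKO libraries (882, 919 and 931) were above all WT libraries (873, 831 and 870). This held for 1 of the 14 genes, a share not above the 10.5% of all genes, and 1 of 14 lay below, against 10.9%.

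Downstream, 12 of 13 pocket protein and E2F genes had lower estimates in cKO mice, against 49.8% of all genes. At an unadjusted p under 0.05 in limma 6 were lower, against 7.08% of all genes (median −0.23). All cKO libraries lay below all WT libraries for 6 of the 13 genes, against 10.9% of all genes. *E2f1*, an activator of S phase genes, was read at 177, 199.0 and 143 in cKO and at 271, 330.2 and 323 in WT libraries, with no overlap (log2 fold change −0.83, SE 0.17, adjusted p = 0.169 in limma). *E2f8*, a repressor of the same family that is itself an E2F target, was read at 392, 366 and 332 in cKO and at 625, 892 and 848 in WT libraries (−1.10, adjusted p = 0.116 in limma). *Tfdp1*, the dimer partner of E2F proteins, stood at 1744 ± 143 against 2251 ± 190.3 (−0.37, adjusted p = 0.226). *Rb1*, which holds E2F in check, had a log2 fold change near 0 (−0.0051) and is named here after its value was seen.

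Of 27 S phase genes, the enzymes and loading factors of DNA replication, 27 had lower estimates, against 49.8% of all genes. At an unadjusted p under 0.05 in limma 24 were lower, against 7.08% of all genes, and the median log2 fold change was −0.67. *Dtl*, a ligase adaptor active in S phase, stood at 280.2 ± 29.7 against 562 ± 67.3 (−1.001), *Uhrf1*, which maintains DNA methylation, at 924 ± 117 against 1790 ± 226 (−0.95), and *Chaf1b*, a histone loading factor, at 234 ± 31.1 against 418 ± 12.9 (−0.85). Their adjusted p was 0.116, 0.116 and 0.121 in limma. Leaving out any 1 library left 21 to 24 of the 27 at that p. Of 5 S and M phase cyclins and kinases, by contrast, 0 were lower at an unadjusted p under 0.05, against 7.08% of all genes. At that p 2 were higher, against 6.91%. These were the mitotic cyclins *Ccnb2*, at 730.0 ± 119 against 549 ± 17.2 (0.40, adjusted p = 0.278), and *Ccnb1*, at 978 ± 154 against 752 ± 28.6 (0.37, adjusted p = 0.293 in limma). Without WT replicate 3 or cKO replicate 3 there was 1 such gene. *Ccnf*, a cyclin of ubiquitin ligases, had −0.19.

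Around *Myc*, its network of 13 binding partners and relatives had 6 lower and 7 higher estimates, against 49.8% and 50.2% of all genes. At an unadjusted p under 0.05 in limma 3 genes were lower, against 7.08% of all genes. That count was 1 without WT replicate 3 and 2 without WT replicate 1 or cKO replicate 2. *Mycn*, a relative with low counts here, stood at 9.39 ± 5.16 against 24.2 ± 4.10 (−1.37, adjusted p = 0.278 in limma). *Mlxipl*, a glucose-responsive factor of hepatic and intestinal metabolism, had −0.70 and *Mycl* −0.36. Of 24 genes that Myc is known to bind, mostly for ribosome and nucleotide synthesis, 23 had lower estimates, against 49.8% of all genes. At an unadjusted p under 0.05 in limma 13 were lower, against 7.08% of all genes (median −0.36). Examples were *Cad*, of pyrimidine synthesis (1143 ± 173 against 1697 ± 44.3, −0.58), *Mybbp1a* (−0.43) and *Odc1*, of polyamine synthesis (−0.60), with adjusted p-values of 0.169, 0.215 and 0.225 in limma. That count was 8 without WT replicate 2 and 6 without cKO replicate 3. Lower estimates of these genes stood beside *Myc* RNA that did not separate the genotypes, and a difference between them was not tested.

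**Figure D5:**
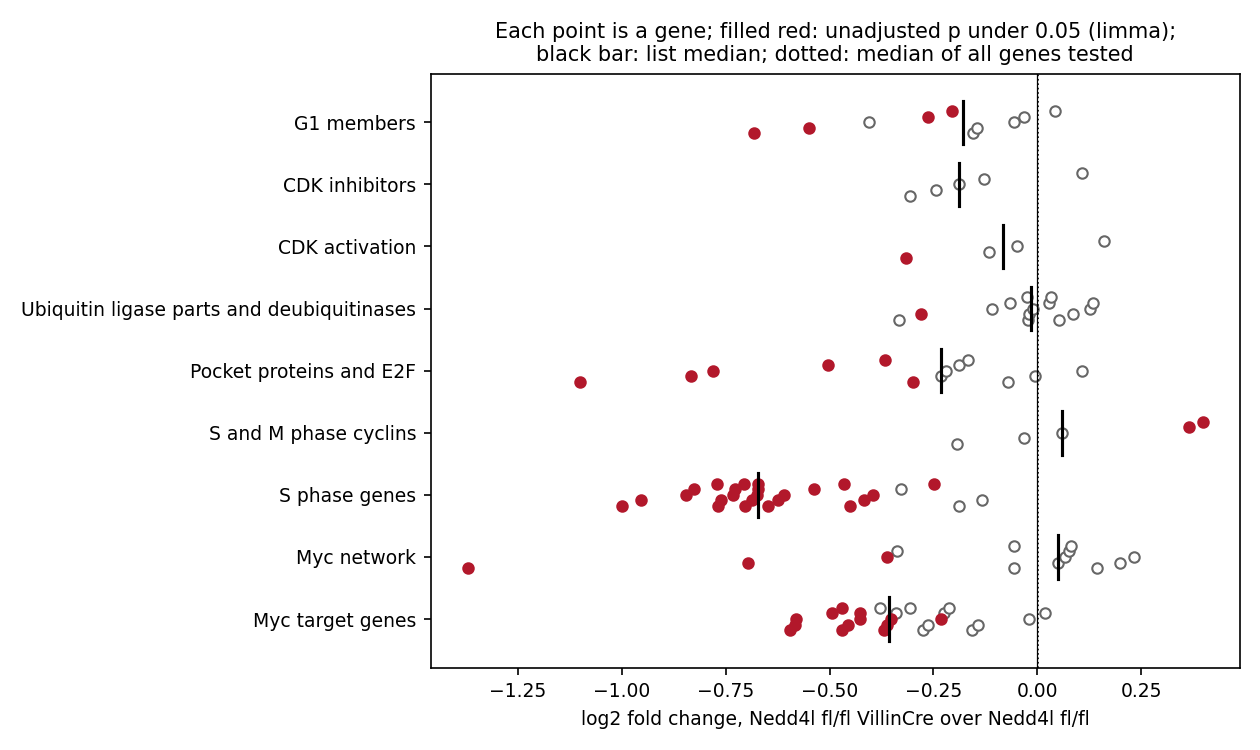
Log2 fold change of cKO over WT mice (horizontal axis) for each tested gene of the G1 members and of the 8 pathway lists, with 1 point per gene, filled in red where the unadjusted p was under 0.05, a bar at the list's median and a dotted line at the median of all genes tested. The S phase genes all lie below 0 (median −0.67), while the S and M phase cyclins have a median of 0.06.

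*Ccne2*, the member with the smallest p, was most like *Chek1*, a kinase of the DNA replication checkpoint, in its pattern over the 6 libraries. The root mean square difference of their centred log2 values was 0.041, against 0.39 for the variation of *Ccne2* itself. *Chek1* was read at 158, 171 and 123 in cKO and at 208, 277 and 223 in WT libraries, so the highest and lowest library of all were the same for both genes. Also among the most similar of all protein-coding genes tested were *Rmi2*, of the Bloom helicase complex (0.084), *Mcm8* (0.091) and *Pcna*, the replication clamp (0.097). These distances describe 6 libraries that share 1 genotype contrast.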

How the data were processed

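RNA of colonic tissue was sequenced in 6 libraries, each taken as 1 mouse, and 1 table with a column per library was used. The authors deposited normalized counts, a signal in which the reads of a gene are scaled by 1 factor per library, beside their genotype means, log2 fold changes, p-values and adjusted p-values, none of which was used. The submitters' processing notes name HISAT2 2.0.5, featureCounts 1.5.0-p3 and the build hg18, yet the coordinates are those of mouse GRCm38, and 97.1% of genes, all 10 members included, had the same coordinates in GENCODE release M21. Strand setting and treatment of shared reads are not given in the sources used here.

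Genes whose mean reached 10 over the 6 libraries were kept, and log2(value + 1) was compared between genotypes by limma 3.58.1 (trend, robust; R 4.3.3) with Benjamini-Hochberg adjustment over 16246 genes and a threshold of 0.05, two-sided. Fold changes on this scale understate those of low genes. Values were whole multiples of a step per library (100% within 0.01), and the whole reads served edgeR 4.0.16 and DESeq2 1.42.0. Ratios were compared by exact permutation tests. The fits were tested on simulated data. Other alternatives were pseudocounts of 0.5 and 5, other filters, quantile normalization, array weights, a replicate block and leaving out each library. Members and lists were chosen with earlier results of these data known. Named were all members, *Nedd4l*, the 3 genes of smallest p in each list and the 5 genes most like the leading member, of which 1 is not reported here.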

Additional observations from a re-analysis of the deposited data

How the results depend on the processing

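The 10 members kept the sign of their difference in all 15 alternatives except *Ccnd3*, *Cdkn1b* and *Myc*. Leaving out 1 library moved *Ccnd3* from −0.13 to 0.011 (positive only without cKO replicate 3), *Cdkn1b* from −0.067 to 0.21 and *Myc* from −0.19 to 0.11, and array weights gave *Myc* 0.16. Leaving out 1 library moved the *Ccnd2* to *Ccnd1* ratio from −0.54 to 0.081 (positive without cKO replicate 1) and the *Cdk6* to *Cdk4* ratio from −0.024 (without cKO replicate 2) to 0.17. DESeq2 called 177 genes lower and 263 higher, of which 1 was a member, *Ccne2*. Array weights, which gave cKO replicate 3 a weight of 4.39 against 0.414 and 0.562 for cKO replicates 1 and 2, so that the cKO estimate rested mostly on 1 mouse, called 369 lower and 262 higher and 2 members, *Ccne2* (adjusted p = 0.0270, highest 0.512 without WT replicate 2) and *Ccne1* (0.0472, highest 0.568 without WT replicate 2), and put 2122 genes with lower and 2084 with higher values below an unadjusted p of 0.05. Without a filter 23 genes were called lower and 7 higher. Leaving out 1 library gave 0 to 52 genes called lower and 0 to 70 higher, 740 to 1424 with lower and 793 to 1451 with higher values below an unadjusted p of 0.05, and 1 to 4 members lower at that p, with 0 members called. The largest counts of calls, 52 and 70, came without cKO replicate 2, and 22 and 2 were called without cKO replicate 1. *Nedd4l* was called by DESeq2, with array weights and without cKO replicate 2. The cause of these shifts was not tested.

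Libraries of the 2 genotypes share replicate numbers. The deviations of same-numbered libraries had correlations near 0 (r = −0.029, −0.090 and −0.056). Such values from 3 libraries per genotype cannot tell whether same-numbered mice shared a litter or a preparation. The fit reported here did not pair them. With the replicate number as a block, 3 members and 1052 of 16246 genes were lower at an unadjusted p under 0.05, *Cdk4* had 0.0514, and 0 genes were called. With 3 mice per genotype, limits of the intervals are wide: for *Myc* and *Ccnd2* the data cannot tell a moderate difference from none, and every member was read over 100 times in each library.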
